A study of Arabidopsis thaliana with 18 samples.

Results

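The Calvin-Benson cycle fixes carbon dioxide onto a sugar phosphate in the chloroplast stroma, reduces the product to triose phosphate with the ATP and NADPH made in the light, and regenerates the acceptor. When Rubisco takes up oxygen instead, 2-phosphoglycolate is formed, and photorespiration returns its carbon to the cycle by a route through chloroplasts, peroxisomes and mitochondria. Leaves are the main site of both pathways, many enzymes of the cycle are activated by light through thioredoxins, and many genes of photosynthesis are known to be under circadian control in Arabidopsis.

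Here, 38 nuclear genes of these pathways were followed in Arabidopsis thaliana: 19 of the Calvin-Benson cycle without Rubisco and 19 of photorespiration. They were selected by gene identifier and role from 33331 genes listed. The rule uses no measured value, but the list was made with earlier results of these data known. All 38 had a mean above 1 TPM (a transcript's share of a library after correction for length) in at least 1 group and were tested, among 19303 genes in all. Most encode enzymes, while the 3 CP12 genes encode small regulatory proteins and PLGG1 encodes a transporter.

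The series consists of polyadenylated RNA from aerial parts of 3 lines at 2 time points, with 3 biological replicates in each of 6 groups. Plants of every group grew for 16 days in cycles of 12 h light and 12 h dark on plates and were then moved to continuous light (LL). Harvest took place 24 h into LL, at subjective dawn (LL24), or 36 h into LL, at subjective dusk (LL36), and several plants were pooled in each sample. The groups used here were the unmodified accession Columbia 2 (Col-2, wt) at LL24 and at LL36, whose labels differ only in the time of harvest. Time of day and time since the last dark period therefore cannot be told apart. The labels do not say whether both groups were grown and processed together, so a batch difference cannot be told apart from time either. The AtGRP7-ox line, which expresses the RNA-binding protein AtGRP7 from a constitutive viral promoter, and the grp7-1 8i line, a T-DNA mutant of AtGRP7 with an RNAi construct against AtGRP8, were not analysed here because their columns could not be assigned to samples.

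The 6 wt libraries followed their labels. The morning clock gene CCA1 averaged 184 TPM at LL24 and 4.12 TPM at LL36, the evening clock gene TOC1 6.82 and 60.9 TPM, and AtGRP7 121 and 4645 TPM. The summed level of 5 markers of green tissue was 41929 to 43348 TPM at LL24 and 23772 to 25919.9 TPM at LL36, whereas 4 root markers summed to at most 2.80 TPM and 2 flower markers to at most 0.96 TPM in any library. A list of 13 genes that respond rapidly to handling summed to 463 to 702 TPM at LL24 and 239 to 504 TPM at LL36. Its level was highest in replicate 3 for 10 of the 13 genes at LL24 and for 12 at LL36, and its part in the results was not tested. Across all tested genes the libraries correlated with r of 0.976 to 0.984 within a time point and 0.935 to 0.943 between them.

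The promoter windows of 6 members are shown, those of 3 members that were higher at LL36 (TKL1, CP12-1 and CP12-2) and of 3 that were lower, since their levels moved in opposite directions. The latter are FBA1 and GLDP2, which fell most of all 38, and GLDP1, the paralog of GLDP2, which fell by less. Each covers 120 bases before and 30 bases after the annotated start of the gene, read 5′ to 3′ from the RefSeq assembly TAIR10.1. The windows are TKL1 (AT3G60750) chr3:22453548-22453697, plus strand; CP12-1 (AT2G47400) chr2:19446610-19446759, plus strand; CP12-2 (AT3G62410) chr3:23090824-23090973, plus strand; FBA1 (AT2G21330) chr2:9130590-9130739, minus strand. The GLDP windows are GLDP1 (AT4G33010) chr4:15931393-15931542, minus strand, and GLDP2 (AT2G26080) chr2:11114262-11114411, minus strand. Capitals mark matches to 5 motifs searched on both strands, namely the evening element AAAATATCT, the CCA1-binding site AAAAATCT, the G-box CACGTG, the I-box core GATAAG and the TATCCA element.
TKL1: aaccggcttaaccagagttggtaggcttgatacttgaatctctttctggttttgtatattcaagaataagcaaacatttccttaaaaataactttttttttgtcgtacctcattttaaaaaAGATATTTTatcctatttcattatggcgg
CP12-1: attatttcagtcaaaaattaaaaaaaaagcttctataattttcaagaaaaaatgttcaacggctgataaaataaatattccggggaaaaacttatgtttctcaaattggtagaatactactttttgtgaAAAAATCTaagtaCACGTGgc
CP12-2: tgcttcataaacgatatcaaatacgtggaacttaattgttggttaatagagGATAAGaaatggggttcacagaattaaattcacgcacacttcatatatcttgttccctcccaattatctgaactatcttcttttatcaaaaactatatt
FBA1: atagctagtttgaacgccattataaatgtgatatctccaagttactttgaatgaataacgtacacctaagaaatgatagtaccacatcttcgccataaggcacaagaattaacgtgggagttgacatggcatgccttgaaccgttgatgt
GLDP1: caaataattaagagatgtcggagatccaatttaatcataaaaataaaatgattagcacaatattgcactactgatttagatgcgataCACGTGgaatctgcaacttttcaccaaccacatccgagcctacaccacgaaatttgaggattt
GLDP2: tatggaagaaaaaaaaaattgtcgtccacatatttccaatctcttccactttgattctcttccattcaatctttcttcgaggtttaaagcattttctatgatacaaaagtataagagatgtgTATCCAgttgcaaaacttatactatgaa

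The TKL1 window held an evening element on the minus strand at bases 2 to 10 after the start. In CP12-1 a CCA1-binding site at bases 10 to 17 and a G-box at bases 23 to 28 lay after the start. Counting bases before the start as negative, CP12-2 held an I-box core from -69 to -64, GLDP1 a G-box from -33 to -28 and GLDP2 a TATCCA element at bases 3 to 8 after it. None of these letter strings occurs in the FBA1 window shown. Within 250 bases before to 50 bases after the start, TKL1 also held a TATCCA element at bases 33 to 38, and CP12-2 held one from -192 to -187. GLDP2 also held an I-box core there, from -233 to -228. Neither of these strings was thus limited to genes that rose or to genes that fell. Over windows of 250 bases before to 50 bases after the start, the G-box occurred in 7 of the 38 members (18.4%). It occurred in 7.68% of 27443 protein-coding genes, 8.97% of tested genes and 14.3% of tested genes lower at LL36 by the test below. Of the members lower by that test, 16% held it. The TATCCA element occurred in 11 members (28.9%), 16.1% of protein-coding genes and 16.7% of tested genes. By the same test, 5 of these members were lower, 3 higher and 3 neither. It occurred in 20% of the lower members and 18.8% of all tested genes that were lower. The I-box core occurred in 6 members (15.8%), 14.6% of protein-coding genes and 15% of tested genes. It occurred in 8% of the lower members and 14.2% of all tested genes that were lower. CCA1-binding sites were found in 5 members (13.2%), against 7.88% of protein-coding genes and 8.23% of tested genes. Of these members, 1 was lower, 1 higher and 3 neither. Lower members held the site in 4% of cases, against 8.14% of all tested genes that were lower. The evening element was found in 1 member (2.63%), against 2.82% and 3.14%. The evening element and the CCA1-binding site differ in their letters and cannot overlap, whereas an I-box core read on 1 strand can overlap a TATCCA element read on the other. These are matches of letters, and binding was not measured.

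Between subjective dawn and subjective dusk, most transcripts of both pathways were less abundant in wt. In limma, with Benjamini-Hochberg adjustment over all tested genes and an adjusted p below 0.05, 25 of the 38 members were called lower at LL36 and 5 higher, while 8 were not called. Of all tested genes, 11.2% were called lower and 41.2% higher, 52.4% in either direction. These shares are the background for each count by role or list on the TPM scale below. The median log2 change from LL24 to LL36 was -0.24 over the members and 0.21 over all tested genes, a distance of -0.45. Because all genes together shifted upward on the TPM scale, most changes below are also given relative to that median of 0.21. Members lay below it in 32 of 38 cases, against 50% of all genes by construction. Of the 8 members not called, TKL2 was at 0.01 relative to this median. The others were at -0.33 (GLYK) to -0.07 (GLO2), with FBPase at -0.28, GLDT at -0.26 and RPI3 at -0.21 relative to this median. Called members more than 0.5 below it numbered 18 (9.95% of all genes), and 1 was more than 0.5 above it (7.94% of all genes). The TPM of the groups did not overlap for 35 members, against 63.8% of all tested genes.

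The upward shift of the median followed the scaling. After median-of-ratios scaling the median change of all genes was 0.01 and after quantile normalization it was 0.04. With these, 3049 and 3607 of all genes were called higher and 3564 and 3025 lower, against 7949 higher and 2158 lower on the TPM scale. Of the members, 30 (background 18.5%) were called lower and 4 (15.8%) higher after median-of-ratios scaling, and 26 (15.7%) lower and 4 (18.7%) higher after quantile normalization. In either direction these were 34 members (34.3% of all genes) and 30 members (34.4%). In all 3 scalings, 28 members had the same call, 24 of them lower and 4 higher. Called or not, 18 members lay more than 0.5 below the median of all genes after median-of-ratios scaling, but 12 after quantile normalization. More than 0.5 above it lay 1 and 3 members. The shares of all genes at this distance were not computed for these scalings. The 100 most abundant genes made up 30.6% to 31.2% of TPM at LL24 and 24.8% to 25.8% at LL36, and 28 of the 38 members ranked among the 500 most abundant genes. In bulk tissue, fewer cells of a type and less RNA per cell cannot be told apart.

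**Figure D1:**
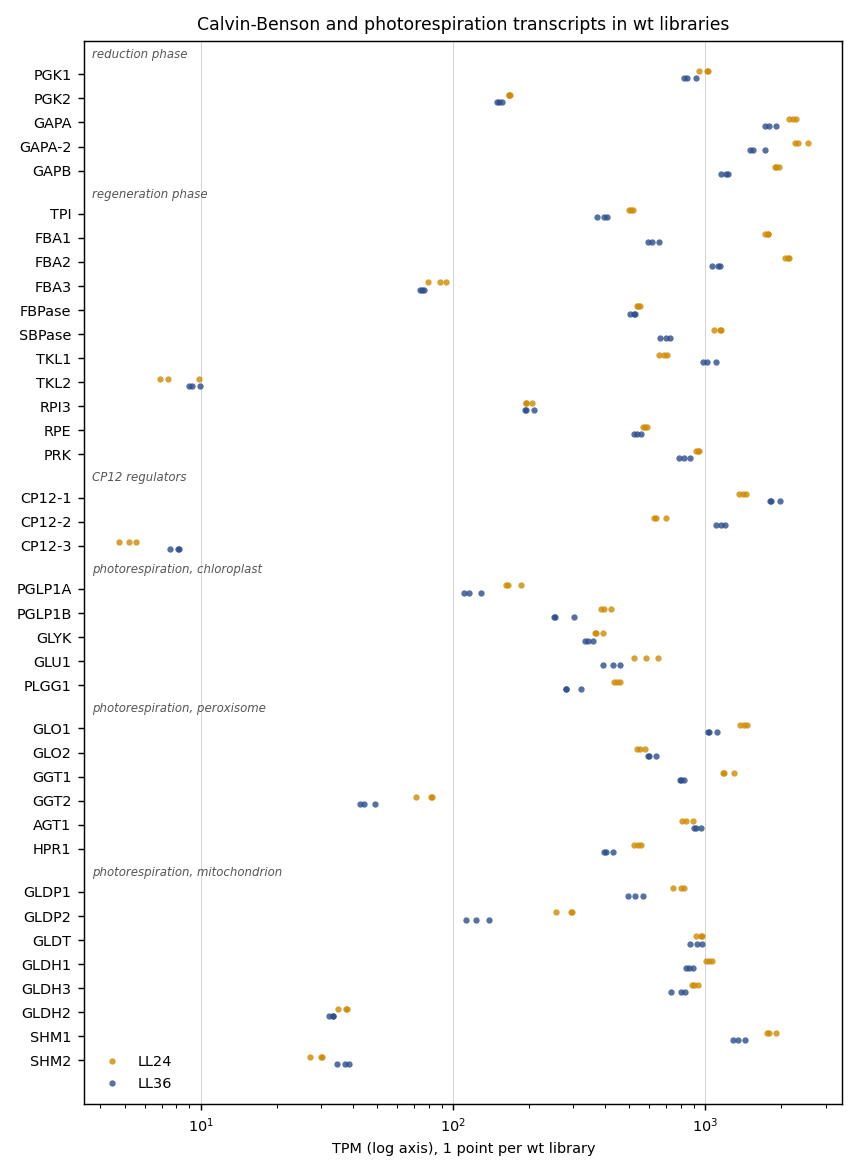
TPM of each of the 38 members (log axis) in the 3 wt libraries of LL24 and the 3 of LL36, 1 point per library, grouped by role. The levels run from a mean of 5.17 TPM for CP12-3 at LL24 to 2380.5 TPM for GAPA-2, and for 35 members the points of LL24 and LL36 do not overlap.

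In the reduction phase of the cycle, all 5 members were lower at LL36. GAPA, GAPA-2 and GAPB encode the A and B subunits of the plastid glyceraldehyde-3-phosphate dehydrogenase (GAPDH), which reduces 1,3-bisphosphoglycerate with NADPH. GAPB was at 1904, 1881 and 1958 TPM in the LL24 libraries and at 1157, 1234 and 1207 TPM in the LL36 libraries. This was a 1.6-fold lower mean (log2 change -0.67, SE 0.04, -0.89 relative to all genes, limma adjusted p = 7.25e-05). GAPA-2 fell from 2329, 2548 and 2265 TPM to 1549, 1724 and 1507 TPM (-0.58, SE 0.07, relative -0.79, limma adjusted p = 0.00104). The GAPA values were 2230.5, 2278 and 2148 TPM at LL24 and 1722, 1907 and 1794 TPM at LL36, the smallest change of the 3 subunit genes (-0.30, SE 0.05, relative -0.51, limma adjusted p = 0.0045). No LL36 library reached the lowest LL24 library for any of the 3, and the call of GAPA was lost after quantile normalization (adjusted p = 0.229). Summed over the subunit genes, plastid GAPDH was 6514 ± 173 TPM at LL24 and 4600.4 ± 232 TPM at LL36 (SD, n = 3 each), 1.42-fold lower.

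PGK1 and PGK2, the plastid phosphoglycerate kinases that supply the substrate of GAPDH, were lower by less. PGK1 was 995 ± 41.9 TPM at LL24 and 862 ± 52.1 TPM at LL36 (SD, n = 3 each), and PGK2 167 ± 1.21 and 152 ± 3.17 TPM. Their limma adjusted p of 0.0269 and 0.0409 lay near the threshold. Without LL24 replicate 1 or 2 or LL36 replicate 1 or 3 the call of PGK1 was lost (0.0737 to 0.0818), and that of PGK2 was lost without any 1 of the 6 libraries (0.0588 to 0.133).

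Within the regeneration phase, 6 of 11 members were lower, 1 was higher and 4 were not called. The plastid aldolases FBA1, FBA2 and FBA3 form fructose and sedoheptulose bisphosphates. FBA1 had the largest change of all 38 members, with 1762, 1774 and 1724 TPM at LL24 and 593, 654 and 616 TPM at LL36. That is a 2.82-fold lower mean (log2 change -1.50, SE 0.05, relative -1.71, limma adjusted p = 3.92e-06). FBA2 was at 2059.7, 2133 and 2143 TPM and then at 1066, 1141 and 1119 TPM (-0.93, SE 0.05, relative -1.14, limma adjusted p = 2.1e-05). Among the members ranked by mean TPM, FBA1 moved from place 6 to place 18 and FBA2 from place 3 to place 7. FBA3, a less abundant plastid isoform, was at 93.5, 88.6 and 79.2 TPM and at 75.3, 74.1 and 76.8 TPM. Its adjusted p of 0.0473 was lost without any 1 library other than LL24 replicate 3 (0.0929 to 0.127). The 3 aldolases summed to 3952.5 ± 40.1 TPM at LL24 and 1805 ± 67.1 TPM at LL36 (SD, n = 3 each), 2.19-fold lower.

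SBPase, the sedoheptulose-1,7-bisphosphatase whose step is specific to the regeneration phase, was measured at 1079.8, 1151 and 1145 TPM at LL24 and at 658, 725 and 696 TPM at LL36. It was 1.62-fold lower (log2 change -0.70, SE 0.05, relative -0.91, limma adjusted p = 0.000152). The chloroplast fructose-1,6-bisphosphatase FBPase, which carries out the equivalent step on the other aldolase product, was 542 ± 8.13 TPM at LL24 and 518 ± 12.4 TPM at LL36 (SD, n = 3 each). It was not called (log2 change -0.06, 95% interval -0.17 to 0.04, limma adjusted p = 0.237), although it was called lower after median-of-ratios scaling (-0.28, adjusted p = 0.00288). Triose phosphate isomerase, encoded by TPI, had 507, 515 and 499 TPM at LL24 and 371, 407 and 397 TPM at LL36. Its groups did not overlap (-0.37, SE 0.05, relative -0.59, limma adjusted p = 0.00149). PRK, phosphoribulokinase, which makes the acceptor ribulose bisphosphate, was 929.8 ± 12.3 and 826 ± 40.7 TPM. Its limma adjusted p of 0.027 was lost without any 1 library other than LL36 replicate 2 (0.0527 to 0.08).

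The higher member of the regeneration phase was TKL1, a plastid transketolase that transfers two-carbon units between sugar phosphates. Its LL24 libraries gave 687, 702 and 652 TPM and its LL36 libraries 974, 1096 and 1016 TPM. All LL36 libraries were above all LL24 libraries, with a mean 1.51 times that of LL24 (log2 change 0.59, SE 0.06, relative 0.38, limma adjusted p = 0.000444). The other transketolase gene, TKL2, was at 6.91 to 9.83 TPM at LL24 and 9.01 to 9.89 TPM at LL36. It was not called with all libraries (0.22, limma adjusted p = 0.183), but was called without LL24 replicate 1 (0.37, adjusted p = 0.00962). RPI3, a ribose-5-phosphate isomerase, was 198 ± 5.74 and 198 ± 8.89 TPM (log2 change 0.00, 95% interval -0.12 to 0.13), and its direction turned with the scaling (-0.22 after median-of-ratios scaling, adjusted p = 0.0173). Of its transcript windows of 100 bases, 15.2% were shared with another annotated gene. RPE, ribulose-phosphate 3-epimerase, was 576 ± 11.2 and 537 ± 17.2 TPM and not called (adjusted p = 0.0987), but was called lower after median-of-ratios scaling (-0.32) and quantile normalization (-0.16).

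The CP12 genes moved against most of the pathway. CP12 proteins hold GAPDH and PRK in an inactive complex in the dark, from which the enzymes are released on reduction in the light. All 3 genes were higher at LL36 and were called in all 3 scalings. CP12-2 showed 639, 626 and 698 TPM at LL24 and 1199, 1106 and 1149 TPM at LL36, the highest rise of all 38 members (log2 change 0.82, SE 0.06, relative 0.60, limma adjusted p = 0.000112). CP12-1 went from 1443, 1363 and 1403 TPM to 1979, 1802 and 1815 TPM (0.41, SE 0.05, relative 0.20, limma adjusted p = 0.0013). With this it moved from place 8 among the members at LL24 to place 1 at LL36. CP12-3, which is little expressed in these samples, had 5.56, 5.21 and 4.73 TPM at LL24 and 7.58, 8.17 and 8.16 TPM at LL36 (0.58, SE 0.08, relative 0.37, limma adjusted p = 0.00151). The groups of none of the 3 genes overlapped.

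Against its partner enzymes, CP12 transcript was more abundant at dusk. The summed CP12 level was 2063 ± 59.9 TPM at LL24 and 3024.6 ± 142 TPM at LL36 (SD, n = 3 each). Its ratio to summed plastid GAPDH, taken within each library, was 0.323, 0.297 and 0.331 at LL24 and 0.719, 0.599 and 0.660 at LL36. The ratio of summed CP12 to PRK was 2.28, 2.14 and 2.24 at LL24 and 4.04, 3.36 and 3.62 at LL36. TKL1 stood at 0.606 ± 0.0335 times the level of SBPase at LL24 and 1.48 ± 0.0265 times at LL36. Such ratios are unaffected by a single scaling factor per library, as in median-of-ratios scaling, but not by quantile normalization. After quantile normalization the groups were still separate for each ratio, with 0.331 ± 0.0219 and 0.666 ± 0.0717 for CP12 to GAPDH. A total of 6 ratios between steps were formed after the values were seen, and in each the groups were separate. For CP12 to GAPDH, CP12 to PRK and TKL1 to SBPase, the parts had already moved in opposite directions without overlap. Separate groups on the TPM scale and the smallest permutation p were therefore fixed in advance for them, and the ratios are descriptive. The exact two-sided permutation test over 3 against 3 libraries gave 0.1 for each (adjusted 0.1), the smallest value it can give.

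**Figure D2:**
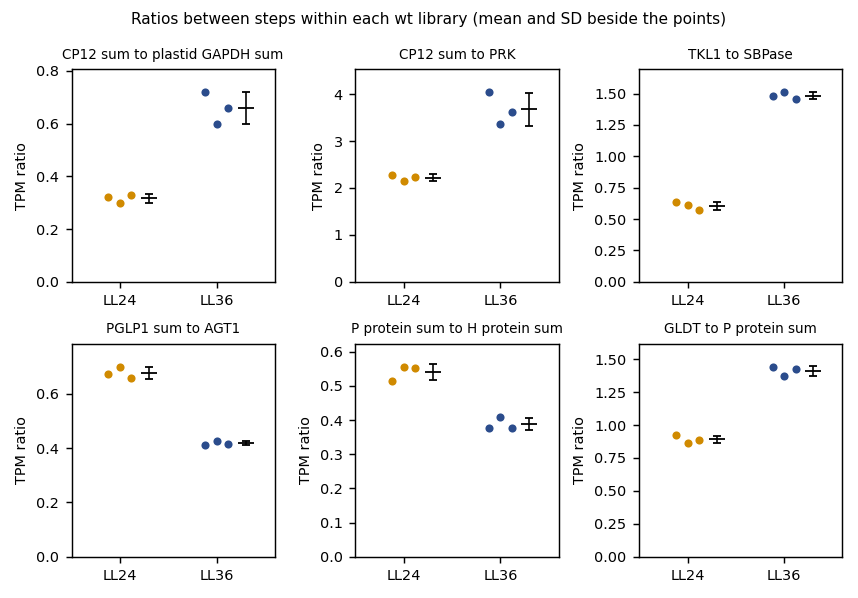
Ratios of TPM between steps within each wt library, with the mean and SD (n = 3) to the right of the points. All axes start at 0, and in each of the 6 panels the LL24 and LL36 points are separate, as for summed CP12 to summed plastid GAPDH with 0.317 ± 0.0174 and 0.659 ± 0.0599.

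For photorespiration, 14 of 19 members were lower at LL36 (11.2% of all tested genes), 1 was higher (41.2%) and 4 were not called. The median log2 change was -0.42, against -0.17 for the 19 Calvin-Benson members and 0.21 for all tested genes. In the chloroplast, 4 of 5 members were lower. PGLP1A and PGLP1B are near-identical genes for the 2-phosphoglycolate phosphatase that opens the pathway. They share 87.2% and 94.6% of their transcript windows of 100 bases, so the split of reads between them is uncertain and their sum is the safer value. The sum was 547, 583 and 587 TPM at LL24 and 371, 411 and 379.98 TPM at LL36, a 1.48-fold lower mean without overlap. Taken singly, PGLP1A went from 162, 185 and 165 TPM to 116, 111 and 129 TPM (-0.52, SE 0.08, relative -0.74, limma adjusted p = 0.00255). PGLP1B went from 385, 398 and 422 TPM to 255, 300.3 and 251 TPM (-0.58, SE 0.08, relative -0.80, limma adjusted p = 0.00174).

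PLGG1 exchanges glycolate and glycerate across the chloroplast envelope. Its libraries gave 433, 459 and 446 TPM at LL24 and 279.7, 322 and 280.1 TPM at LL36, 1.52-fold lower (log2 change -0.60, SE 0.07, relative -0.82, limma adjusted p = 0.000748). GLU1, the ferredoxin-dependent glutamate synthase that reassimilates photorespiratory ammonium, was more variable, with 519, 650.2 and 584 TPM at LL24 and 394, 459 and 429 TPM at LL36. The groups were still separate (-0.45, SE 0.10, relative -0.66, limma adjusted p = 0.00918). GLYK, the glycerate kinase that closes the pathway, was 375 ± 14.5 and 345 ± 14.0 TPM and was not called (-0.12, 95% interval -0.25 to 0.01, adjusted p = 0.0972). It was called lower after median-of-ratios scaling (-0.34) and quantile normalization (-0.18).

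Of 6 peroxisomal members, 4 were lower. GLO1 and GLO2 encode glycolate oxidases, which form glyoxylate and hydrogen peroxide. GLO1 was at 1369, 1428 and 1459 TPM at LL24 and at 1034, 1107 and 1021 TPM at LL36 (log2 change -0.43, SE 0.05, relative -0.64, limma adjusted p = 0.000914). GLO2 was at 535, 548 and 574 TPM and at 593, 637 and 597 TPM, so its groups did not overlap either, but it was not called (0.14, relative -0.07, limma adjusted p = 0.0574). Glyoxylate is transaminated to glycine by the glutamate:glyoxylate aminotransferases GGT1 and GGT2. GGT1 had 1177, 1183 and 1298 TPM at LL24 and 790.3, 820.3 and 797 TPM at LL36 (-0.60, SE 0.05, relative -0.81, limma adjusted p = 0.000264). GGT2, the less abundant gene, had 71.2, 82.3 and 81.5 TPM and then 44.6, 48.9 and 42.8 TPM (-0.78, SE 0.08, relative -0.99, limma adjusted p = 0.000522). For both, every LL36 library was below every LL24 library.

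The serine:glyoxylate aminotransferase gene AGT1 stood apart from the GGT genes. It was at 811, 834 and 894 TPM at LL24 and at 898, 963 and 917 TPM at LL36, and was not called (log2 change 0.13, limma adjusted p = 0.0856). Both GLO2 and AGT1 were called higher without LL24 replicate 3 (adjusted p = 0.045 and 0.0373), and both changed sign after median-of-ratios scaling (-0.08 and -0.09, not called). HPR1, which reduces hydroxypyruvate to glycerate, had 519, 543 and 554 TPM at LL24 and 403, 431 and 397 TPM at LL36 (-0.39, SE 0.05, relative -0.61, limma adjusted p = 0.00146). Its groups did not overlap. The ratio of summed PGLP1 to AGT1, also formed after the values were seen and descriptive, was 0.677 ± 0.0210 at LL24 and 0.418 ± 0.00782 at LL36.

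Among 8 mitochondrial members, 6 were lower, 1 was higher and 1 was not called. Glycine decarboxylase releases carbon dioxide and ammonium from glycine with its P, T, H and L proteins. The 2 genes of the P protein, which carries out the decarboxylation, had the largest changes of the complex. GLDP2 was at 256, 293 and 295 TPM at LL24 and at 112, 139 and 123 TPM at LL36, 2.26-fold lower (log2 change -1.17, SE 0.09, relative -1.39, limma adjusted p = 0.000182). GLDP1 was at 741, 819 and 799 TPM and at 492, 566 and 526 TPM (-0.58, SE 0.07, relative -0.79, limma adjusted p = 0.000914). Neither gene's groups overlapped. The H protein genes, whose product shuttles the lipoyl-bound intermediate, were lower by less. GLDH1 was 1034 ± 27.8 and 863 ± 26.9 TPM (adjusted p = 0.00423), GLDH3 906 ± 22.8 and 786 ± 52.1 TPM (0.0267) and GLDH2 37.0 ± 1.6 and 33.1 ± 0.657 TPM (0.0482).

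The call of GLDH3 was lost without LL24 replicate 1 or 2 or LL36 replicate 1 or 3 (adjusted p = 0.0576 to 0.0795), and that of GLDH2 without any 1 library other than LL24 replicate 3 (0.0964 to 0.144). GLDT, the T protein that forms methylene tetrahydrofolate, was 951 ± 28.2 TPM at LL24 and 921 ± 47.9 TPM at LL36, with overlapping groups (log2 change -0.05, 95% interval -0.18 to 0.08, adjusted p = 0.476). It was called lower after median-of-ratios scaling (-0.27, adjusted p = 0.00857). The ratios of the subunit transcripts were formed after the values were seen, from genes that had fallen by unlike amounts, and are descriptive. The exact permutation test gave 0.1 for each, the smallest value it can give. Summed P protein was 0.540 ± 0.0232 times summed H protein at LL24 and 0.388 ± 0.0171 times at LL36. GLDT was 0.892 ± 0.0283 times summed P protein at LL24 and 1.41 ± 0.0374 times at LL36 (SD, n = 3 each).

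SHM1 and SHM2 encode mitochondrial serine hydroxymethyltransferases, which condense glycine and the one-carbon unit to serine. SHM1 was at 1754, 1787 and 1909 TPM at LL24 and at 1286, 1436 and 1348 TPM at LL36 (-0.42, SE 0.06, relative -0.63, limma adjusted p = 0.00172). SHM2, far less abundant, was at 29.97, 30.3 and 27.2 TPM and at 34.7, 38.5 and 37.2 TPM, and was the photorespiratory member called higher (0.33, SE 0.07, relative 0.12, limma adjusted p = 0.00764). That call was lost after median-of-ratios scaling (0.12, adjusted p = 0.224) and quantile normalization (0.18, adjusted p = 0.095).

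**Figure D3:**
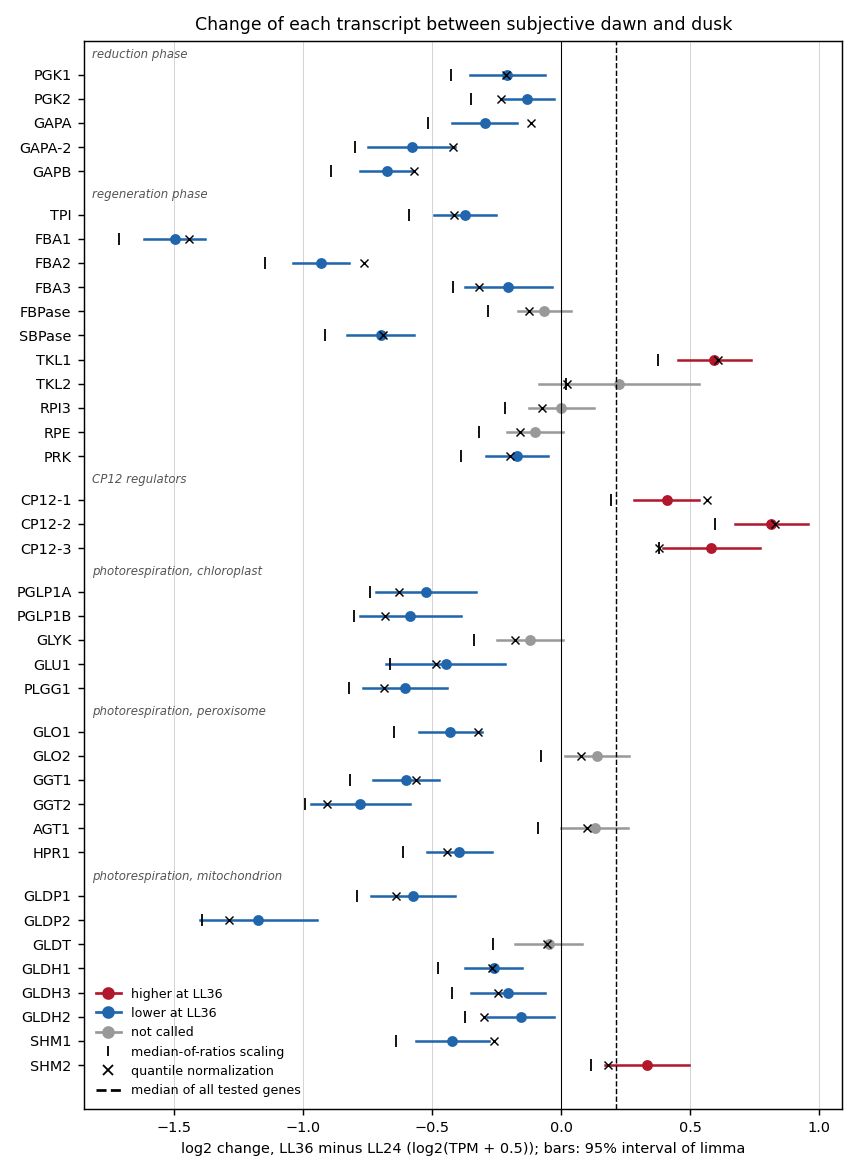
Log2 change from LL24 to LL36 of each member with its 95% interval from limma, coloured by call, and the change after median-of-ratios scaling (bar) and quantile normalization (cross). The dashed line is the median of all tested genes (0.21), and 32 of the 38 members lie to its left, with FBA1 (-1.50) and GLDP2 (-1.17) farthest away.

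Paralogous members did not always move together. The ratio of their TPM was taken within each library for 14 pairs. In 9 pairs the ratios did not overlap between the time points, and in 5 of these the log2 ratio moved by more than 0.5. No share was computed for pairs of other genes. Taken singly, 63.8% of all tested genes had TPM without overlap, so the count does not set paralogs apart. The exact two-sided permutation p was 0.1 for each of the 9 pairs, which is the smallest that 3 against 3 libraries allow (0.156 after Benjamini-Hochberg adjustment over the 14). FBA1 was at 0.804 to 0.856 times the level of FBA2 at LL24 and at 0.550 to 0.573 times at LL36 (change of the log2 ratio -0.57). FBA3 was at 0.0369 to 0.0454 times FBA2 at LL24 and at 0.0649 to 0.0707 times at LL36 (0.73). Relative to FBA2, FBA1 was thus lower and FBA3 higher at LL36. After quantile normalization all 5 pairs kept their direction without overlap, but only 2 still moved by more than 0.5, FBA1 to FBA2 (-0.68) and GLDP1 to GLDP2 (0.64). FBA3 to FBA2 moved by 0.44, SHM1 to SHM2 by -0.44 and GLO1 to GLO2 by -0.40.

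Within the P protein, GLDP1 exceeded GLDP2 by a factor of 2.71 to 2.89 at LL24 and of 4.08 to 4.38 at LL36 (change of the log2 ratio 0.60). SHM1 exceeded SHM2 by 58.5 to 70.1 times at LL24 and by 36.2 to 37.3 times at LL36 (-0.75). GLO1 exceeded GLO2 by 2.54 to 2.60 times and by 1.71 to 1.75 times (-0.57), the ratio with the least spread between libraries among these pairs. Smaller shifts without overlap were those of GAPA to GAPA-2, from 0.933 ± 0.0343 to 1.14 ± 0.0472, CP12-1 to CP12-2, from 2.15 ± 0.127 to 1.62 ± 0.0363, GGT1 to GGT2, from 15.6 ± 1.11 to 17.7 ± 0.927, and TKL1 to TKL2, from 86.5 ± 15.9 to 109.7 ± 7.94. Their log2 ratios moved by 0.28, -0.41, 0.18 and 0.37, and after quantile normalization by 0.30, -0.27, 0.34 and 0.59. The ratios of PGK1 to PGK2, CP12-3 to CP12-2, GLDH1 to GLDH3, GLDH1 to GLDH2 and PGLP1A to PGLP1B overlapped.

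**Figure D4:**
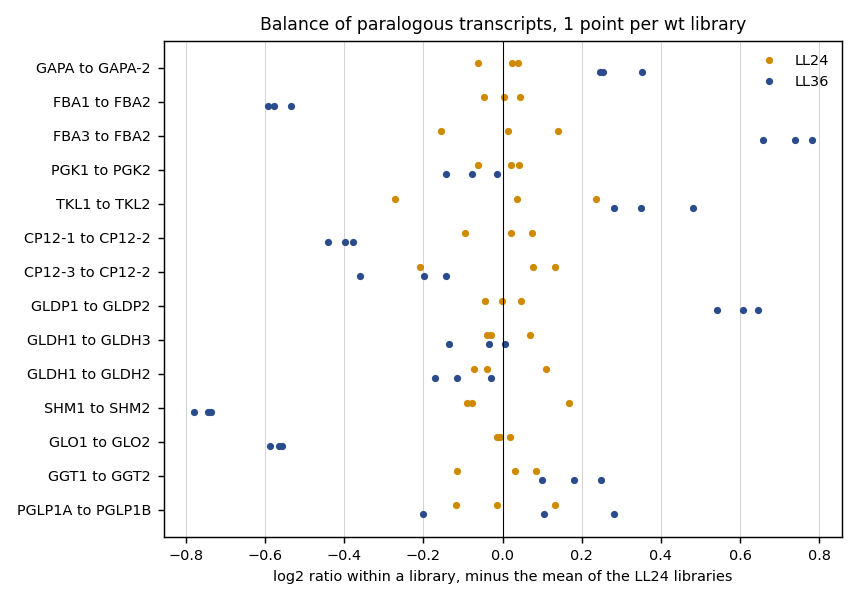
Log2 ratio of 14 pairs of paralogous transcripts within each wt library, shown as the distance from the mean of the 3 LL24 libraries of that pair, 1 point per library. The 5 pairs FBA1 to FBA2 (-0.57), FBA3 to FBA2 (0.73), GLDP1 to GLDP2 (0.60), SHM1 to SHM2 (-0.75) and GLO1 to GLO2 (-0.57) moved by more than 0.5 with separate groups on the TPM scale.

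All 38 members together made up 3.10% ± 0.0536 of the TPM at LL24 and 2.48% ± 0.0858 at LL36 (SD, n = 3 each), a sum that was 1.25-fold lower at LL36. Within LL36, 31 of the 38 members were highest in replicate 2 and 27 were lowest in replicate 1. At LL24, 20 members were lowest in replicate 1. Members thus shared deviations between libraries of one time point, and they are not independent of each other. Without LL36 replicate 2, 22 members were called lower (9.11% of all genes in that fit) and 5 higher (30.9%).

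Neighbouring genes of the pathways were described by lists that hold no member. Of 9 genes for light regulation of the cycle (thioredoxins, their reductases and NTRC), 6 were called higher and 3 lower. The median change of the list was 0.28, against 0.21 for all tested genes. FTRA2, a variable subunit of the ferredoxin-thioredoxin reductase, was 96.6 ± 4.19 TPM at LL24 and 229 ± 11.4 TPM at LL36 (relative change 1.03, limma adjusted p = 2e-05). TRXf2, an f-type thioredoxin, was 119 ± 5.39 and 90.8 ± 1.94 TPM (relative -0.60, adjusted p = 0.00155), and NTRC (relative -0.45) and TRXf1 (relative -0.37) were called lower as well.

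The next list held 19 genes for other isoforms of the same enzymes and for triose phosphate export. Of these, 7 were called higher (41.2% of all tested genes), 4 lower (11.2%) and 8 were not called (median change 0.07). Of the cytosolic aldolases, FBA5 and FBA6 went the other way from the plastid aldolases, but not all did so to that extent. FBA8, at 292 ± 32.0 and 295 ± 5.93 TPM, was not called (log2 change 0.02, limma adjusted p = 0.868). FBA4 was not called either (0.07, adjusted p = 0.457), and FBA7 was called higher by less (0.40, adjusted p = 0.0184). FBA5 was 49.3 ± 4.81 TPM at LL24 and 239 ± 14.96 TPM at LL36 (relative 2.06, limma adjusted p = 7.33e-06), and FBA6 was 61.2 ± 9.12 and 138 ± 3.20 TPM (relative 0.96, adjusted p = 0.00026). The cytosolic GAPDH gene GAPC2 was 1787 ± 70.2 and 1074 ± 12.1 TPM (relative -0.95, limma adjusted p = 5.64e-05). GAPCP2, a GAPDH gene of another type that the plastid GAPDH sum above leaves out, was 7.37 ± 0.776 and 4.77 ± 0.488 TPM (relative -0.79). Of 5 Rubisco genes, 3 were lower and 2 not called (median -0.46). RCA, Rubisco activase, was 6188 ± 132 and 2524 ± 115 TPM (relative -1.51, limma adjusted p = 6.5e-06), while the small subunit genes RBCS3B and RBCS1A had relative changes of -0.73 and -0.68. RBCS3B shares 8.93% of its transcript windows with RBCS1B, so its level is less certain.

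Of 25 further genes of photorespiration and its side routes, 24 were tested. Of those, 7 were higher (41.2% of all tested genes), 7 lower (11.2%) and 10 not called (median change 0.08). SHM5 stayed below 1 TPM and was not tested. CAT2, the leaf peroxisomal catalase that removes hydrogen peroxide made by glycolate oxidase, was 1502 ± 56.6 TPM at LL24 and 283 ± 19.4 TPM at LL36 (relative -2.62, limma adjusted p = 1.59e-06), a larger change than that of any member. BOU, a mitochondrial carrier needed for photorespiration, was 131 ± 6.06 and 71.5 ± 2.85 TPM (relative -1.08, adjusted p = 7.75e-05). SHM7 was called lower (relative -0.71) and the NADH-dependent glutamate synthase GLT1 higher (74.4 ± 9.35 and 135 ± 8.01 TPM, relative 0.65, limma adjusted p = 0.000814).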

How the data were processed

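Polyadenylated RNA from aerial parts was sequenced as 100-nt paired-end reads, of which the authors used the first read. Reads were trimmed with Sickle, and per the labels STAR 2.5.2a and Salmon 0.8.2 were used with TAIR10. The methods name the atRTD transcriptome and tximport. Genes for rRNA and of organelles were excluded. The kit does not mark strand, so reads of overlapping genes cannot be told apart. The deposited values are TPM per gene, which keep no depth, so neither read numbers nor counting intervals can be given. They summed to 990489 to 992864 per wt library.

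The 6 wt columns were used. A further 12 columns of per-sample values matched no sample's labels and entered no step, so the contrasts of lines and the fit over 18 libraries were not run. TPM were transformed as log2(TPM + 0.5), which understates changes of low genes. Every gene whose mean passed 1 TPM at either time point was tested with limma 3.58.1 in R 4.3.3 (mean-variance trend, two-sided, Benjamini-Hochberg over 19303 genes, called below 0.05), in place of the authors' edgeR test, which needs counts. The procedure was first tested on simulated data. Paralog and step ratios were compared by an exact permutation test written for this purpose, with Benjamini-Hochberg adjustment by scipy 1.17.1. Errors are SD unless named SE. The labels call the replicates biological without naming separate cultures, so p-values measure the spread between these samples, which may be partly technical.

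All 38 members were described by role. Values per library were given for called members more than 0.5 from the median change of all genes, for CP12 genes and for pairs whose log2 ratio moved by more than 0.5 without overlap. TKL1, AGT1 and the step ratios were added after values were seen. At most 4 called genes, those farthest from that median, were named per further list, and the other cytosolic aldolases were added after values were seen. The members and lists were chosen with earlier results of these data known. All 38 members matched RefSeq by gene identifier, and windows were read from TAIR10.1, with no coordinates carried over from TAIR10. Alternatives were other pseudocounts, filters, scalings, no trend, a replicate block and leaving out libraries.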

Additional observations from a re-analysis of the deposited data

How the results depend on the processing

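Of the 38 members, 21 kept their direction and call under all of the 16 alternatives that gave a value for them, and all 21 were called. Over all members and alternatives, 530 values kept direction and call, 50 lost a call, 12 gained one and 8 changed sign. Under median-of-ratios scaling 6613 genes in all were called, with 3049 higher and 3564 lower, and the median member change was -0.45. Under quantile normalization 6632 were called, 3607 of them higher, and the member median lay -0.31 from that of all genes. Without a filter on low values that distance was -0.37. Leaving out the 100 most abundant genes, 8 members among them, gave 4928 higher calls and a member median of -0.30. Without replicate 3 of both time points, an alternative chosen after seeing the data because of the handling genes, 6161 genes were called, 4576 of them higher (23.7%), and 23 members, 19 lower (8.2% of all genes) and 4 higher. The call of GLU1 was lost there (adjusted p = 0.0716). RPI3 changed sign with median-of-ratios scaling (-0.22), quantile normalization (-0.0751) and without the most abundant genes (-0.11), and ranged from -0.0347 to 0.0255 when 1 library was left out. GLO2 (-0.0774) and AGT1 (-0.0875) changed sign with median-of-ratios scaling. The change from LL24 to LL36 in the log2 ratio of PGLP1A to PGLP1B ranged from -0.0483 to 0.193 when 1 library was left out. With quantile normalization, tried for the ratios after seeing the data, the changes of PGK1 to PGK2 (0.0172) and GLDH1 to GLDH2 (0.033) turned in sign. Leaving out 1 library gave 24 to 30 called members and 7741 to 9571 called genes in all (40% to 49.7% of those tested). No filter gave 26 members and 37.3% of all genes, and no mean-variance trend 26 members and 51.6%. The causes were not tested.

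Replicates of the same number deviated together with r = 0.128, 0.148 and 0.0341. Libraries of different number and time point gave r of -0.133 to 0.0089. The main fit took no pairs, and whether the numbers stand for shared batches was not tested. With a replicate block, 9947 genes (51.5%) and 27 members were called (22 lower, 5 higher), and the calls of PGK2 (adjusted p = 0.0678), FBA3 (0.0661) and GLDH2 (0.0551) were lost. The contrasts of lines, the fit over all libraries and their alternatives were not run. TPM carry no depth, which limits what can be said of TKL2 and CP12-3, both below 10 TPM.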
